A study of Mus musculus with 3 samples.

Results

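Wnt ligands, their Frizzled receptors and co-receptors, the secreted Wnt inhibitors and the target gene Axin2 were followed in cultured synovial cells from the inflamed joints of mice. The set was chosen by gene symbol alone. It took every probe whose symbol was a Wnt, Fzd, Sfrp or Dkk number, and those of Lrp5, Lrp6, Ror1, Ror2, Wif1, Frzb, Sost and Axin2. This gave 44 genes with 45 probes, out of 19321 named genes and 23473 probes on the array. There were 18 ligands, 10 Frizzled receptors, 4 co-receptors (with 2 probes for Ror1), 11 secreted inhibitors and 1 target gene, and Wnt11 was not analysed here.

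Wnt proteins are secreted lipid-modified ligands that bind Frizzled receptors together with the co-receptors Lrp5 and Lrp6, which protects β-catenin from destruction and lets it act with TCF/LEF factors on target genes. Other Wnts, such as Wnt5a, signal without β-catenin through Frizzled with Ror1 or Ror2. Secreted antagonists set how much ligand reaches the cell: the Sfrp proteins, Frzb and Wif1 bind Wnts, whereas Dkk1 and sclerostin, the product of Sost, bind Lrp5 and Lrp6. In joints the pathway is best known for its role in cartilage and bone, and Dkk1 from inflamed synovium restrains bone formation.

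The cells came from the joint pannus of arthritic D1BC mice, which carry the B7.1 (CD80) gene under a rat type II collagen promoter and enhancer on a DBA/1 background and had been immunized with bovine type II collagen. After an overnight culture in DMEM with serum they received abatacept (CTLA-4-Ig, the extracellular domain of CTLA-4 joined to a human IgG Fc), human IgG (hIgG) as a protein control, or medium alone as vehicle, and RNA was taken after 48 h. The sample titles give 100 μg and the methods 100 μg/ml for both proteins, while the protocol in the labels gives 100 mg/ml. All 3 groups therefore shared the transgene, the strain and the arthritis, and each was measured on 1 array, so that no difference has a replicate check and no test was possible. Neither the labels nor the methods give the age at isolation or tell whether the cultures came from the same, pooled or different mice, so that a ratio also holds whatever else set the cultures apart.

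Signals are background-subtracted spot intensities scaled to a median of 25 on each array, and a probe counted as detected when its spot lay more than 2 standard deviations above the blank spots. This limit was a signal of 0.791 for CTLA-4-Ig, 0.894 for hIgG and 0.963 for vehicle. Of all probe spots, 81.4% to 84.0% were detected. The spread within an array came from the positive control spots, with a coefficient of variation of 6.3% to 13.5%, and from the blank spots, with a standard deviation of 0.396 to 0.482 signal units. Both were combined into a spot error for every log2 ratio, given below after ±, which leaves out all variation between arrays and cultures. The labels call the cells fibroblast-like synoviocytes. The fibroblast markers gave a summed signal of 21794 to 23315, with 13 of 14 probes detected on every array. The exception was 1 of the 2 probes of Thy1, whose other probe gave 449 to 557. The macrophage markers gave 35996 to 41879, with 10 of 10 detected, so that the cultures held both kinds of transcripts. Most of the macrophage sum was Lyz2 (27289 to 32021), and sums over different probes do not compare the 2 cell types. In such bulk RNA, fewer cells of a type and less RNA per cell cannot be told apart.

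Most of the Wnt system was detected, and none of the probes detected on every array differed 2-fold between arrays. On all 3 arrays 36 of the 45 probes (35 genes) were detected, which is 80.0%, beside 79.5% of all probes. These were 12 of 18 ligands, 10 of 10 Frizzled receptors, 5 of 5 co-receptor probes and 9 of 11 secreted inhibitors. Before the normexp background correction, which removed these contrasts with hIgG, the smaller differences fell into 3 shapes. Sfrp1, Sfrp2 and Wnt16 had about equal signals with CTLA-4-Ig and vehicle and lower ones with hIgG. Sfrp4 and Dkk1 had their highest signals with hIgG. Fzd4, Fzd7, Fzd10 and Dkk3 had their highest signals with CTLA-4-Ig. With normexp the CTLA-4-Ig over hIgG ratio of each of these 9 probes lay between -0.14 and 0.06 on the log2 scale. That correction adds an offset of 50 and subtracts a background column that followed the spot signal at a log2 correlation of 0.99 to 1.0. It may take out signal along with the background, so its ratios cannot decide whether a contrast is real.

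**Figure D1:**
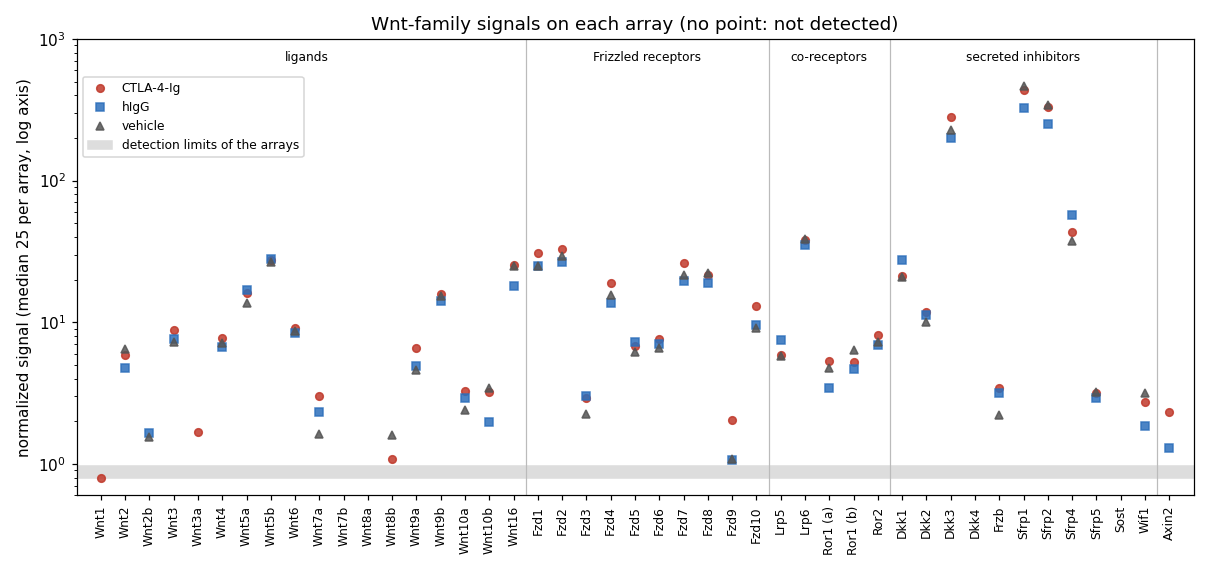
Normalized signal (log axis) of the 45 Wnt-family probes in the CTLA-4-Ig, hIgG and vehicle cultures, grouped by role, with the range of the detection limits shaded and no point where a probe was not detected. Each point is 1 array, and the 3 points of most probes nearly coincide. Levels of different probes are not comparable with each other.

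Set against hIgG, 0 of the 36 probes were 2-fold or more higher with CTLA-4-Ig and 0 were that much lower, where 0.471% and 0.193% of all 18664 probes were. Relative to vehicle the counts were again 0 and 0, beside 0.643% and 0.177% of all probes. For hIgG over vehicle they were 0 and 0, beside 0.182% and 0.263%. With so few 2-fold differences on the arrays, 0 of 36 is close to this background. At 1.5-fold, 3 probes were higher with CTLA-4-Ig than with hIgG and 0 lower (3.61% and 1.13% of all probes). Relative to vehicle 3 were higher and 0 lower (4.58% and 1.16%). Between hIgG and vehicle 1 was higher and 2 were lower (2.02% and 1.84%). Fzd9, Wnt10b and a Ror1 probe made up the first count, Fzd9, Wnt7a and Frzb the second, and Sfrp4, Wnt10b and Wif1 the third. Apart from Sfrp4, these had mean signals under 5, where the log2 ratios of all probes spread most, and with normexp all of these ratios lay between -0.14 and 0.01.

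With the main scaling, the members were shifted slightly as a group, though not with normexp, nor over vehicle with quantile normalization or cyclic loess. For CTLA-4-Ig over hIgG the median of their log2 ratios was 0.21 (-0.39 to 0.94), against 0.09 for all probes, and 28 of the 36 lay above that value and 8 below. For CTLA-4-Ig over vehicle this median was 0.16 (-0.30 to 0.92) against 0.10, with 21 above and 15 below. For hIgG over vehicle it was -0.06 (-0.79 to 0.61) against 0.03, with 15 above and 21 below. Dim probes in general had higher ratios with CTLA-4-Ig, so probes of similar signal are the closer reference. Over hIgG, 9 members under a signal of 5 had a median of 0.38 (all probes 0.16), and 19 at 5 to 25 had 0.20 (0.12). At 25 to 100, 5 had 0.11 (0.09), and at 100 or more, 3 had 0.44 (0.04). Over vehicle these medians were 0.38 (0.18), 0.15 (0.15), 0.18 (0.09) and -0.05 (0.06). The hIgG array was the lowest of the 3 for 20 of the 36 probes (55.6%), against 34.4% of all probes, and the highest for 7 (19.4%), against 22.9%. The CTLA-4-Ig array was the highest for 20 (55.6%, as for all probes) and the lowest for 0 (19.8% of all probes). These comparisons share arrays, so a low hIgG value moves 2 of them at once. With the normexp correction the hIgG array was lowest for 11 of the 36, and the median for CTLA-4-Ig over hIgG was -0.00, against -0.00 for all probes.

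Counted by spot error, 8 probes were higher with CTLA-4-Ig than with hIgG by more than 2 spot errors (22.2%) and 2 were lower (5.56%), where 5.85% and 1.66% of all probes were. The 8 were Sfrp1, Sfrp2, Dkk3, Wnt16, Fzd4, Fzd7, Fzd10 and a Ror1 probe, and the 2 were Sfrp4 and Dkk1. Relative to vehicle only Fzd10 was past this limit, and it was higher with CTLA-4-Ig (5.66% of all probes were higher and 1.18% lower). Between hIgG and vehicle Sfrp4 was higher, and Sfrp1 and Wnt16 were lower (1.05% and 1.15% of all probes). The count of 8 depended on the scaling, as did the share of all probes. It was 4 (11.1%) after quantile normalization or cyclic loess, where 2.51% and 2.47% of all probes were higher, 2 (5.56%) when the arrays were scaled over the jointly detected probes, against 2.42%, and 0 with normexp, against 2.23%. Over vehicle, Fzd10 was no longer past the limit under these 4 alternatives.

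**Figure D2:**
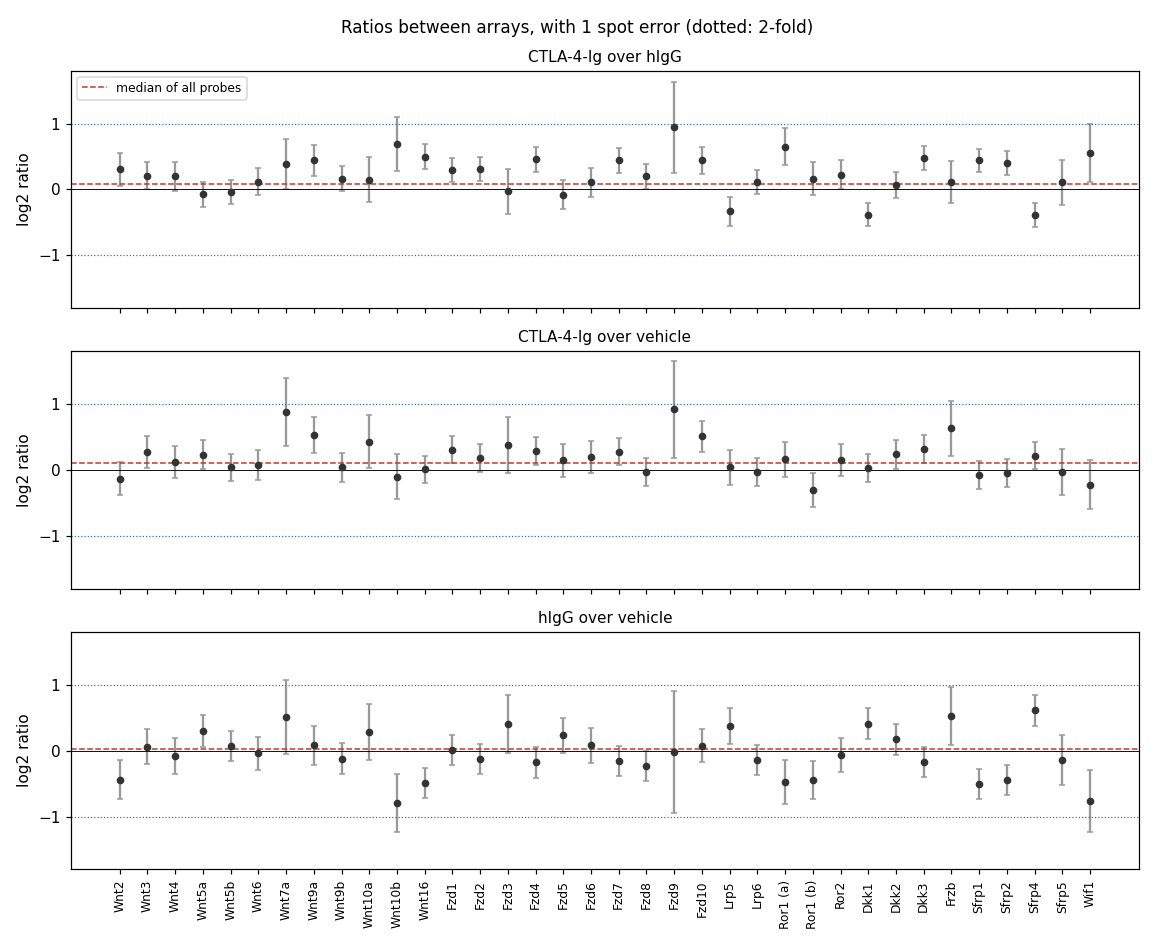
Log2 ratio of each of the 36 Wnt-family probes detected on every array, with 1 spot error, for CTLA-4-Ig over hIgG, CTLA-4-Ig over vehicle and hIgG over vehicle, with dotted lines at 2-fold and a dashed line at the median of all probes. All 36 ratios lie inside the 2-fold lines in each comparison. The plotted ratios use the main scaling, and with normexp the median over hIgG is -0.00.

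The ligands had medians of 0.21, 0.10 and 0.01 on the log2 scale for the comparisons with hIgG, with vehicle and of hIgG with vehicle. Wnt16, a ligand with roles in bone and joints, had a signal of 25.3 with CTLA-4-Ig, 17.9 with hIgG and 25.1 with vehicle. Its log2 ratio was 0.50 ± 0.19 over hIgG and 0.01 ± 0.21 over vehicle, and that of hIgG to vehicle was -0.49 ± 0.23. With normexp these were -0.01, -0.04 and -0.03. Thus the hIgG culture stood apart with the main scaling, and the normexp values cannot decide whether it did. Wnt5a and Wnt5b, the ligands best known for signalling without β-catenin, hardly differed. Wnt5a had signals of 16.0, 16.8 and 13.7 with CTLA-4-Ig, hIgG and vehicle (the order kept from here on), and log2 ratios of -0.07 ± 0.19 to hIgG and 0.23 ± 0.22 to vehicle. Wnt5b had 27.3, 28.0 and 26.7, with -0.04 ± 0.18 and 0.04 ± 0.21. None of these ratios came near 2 spot errors. Wnt9b gave 15.9, 14.2 and 15.4, and Wnt6 gave 9.13, 8.42 and 8.66, again close on all 3 arrays. Wnt3 had 8.81, 7.60 and 7.29, Wnt4 had 7.71, 6.72 and 7.10, and Wnt2 had 5.91, 4.76 and 6.48, with log2 ratios over hIgG of 0.21, 0.20 and 0.31. None of these 5 ligands differed by more than 2 spot errors.

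Wnt9a had signals of 6.62 with CTLA-4-Ig, 4.87 with hIgG and 4.59 with vehicle, which is 0.44 ± 0.24 over hIgG and 0.53 ± 0.27 over vehicle in log2. Its CTLA-4-Ig signal lay above both controls, by less than 2 spot errors, and level with them under normexp. Wnt7a, at 3.02, 2.32 and 1.63, stood in descending order, with 0.38 ± 0.38 over hIgG and 0.88 ± 0.51 over vehicle. Wnt10b, a ligand that favours bone formation over fat, had 3.21, 1.99 and 3.45, with 0.69 ± 0.41 over hIgG and -0.79 ± 0.44 for hIgG over vehicle. Wnt10a had 3.25, 2.92 and 2.42. The last 3 ligands were so dim that their spot errors reached up to 0.56 on the log2 scale, and their order on the arrays is not established. With normexp the 12 ratios of these 4 ligands lay between -0.01 and 0.02.

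The remaining 6 ligands were not measured on every array. Wnt3a, the classical activator of β-catenin, was detected only on the CTLA-4-Ig array, at 1.69, which is at least 1.89-fold over hIgG and at least 1.75-fold over vehicle. These bounds set the detected signal against the lowest signal that any probe had when detected on the other array. They leave out the error of the dim spot itself, with blank spots spreading by 0.396 to 0.482 signal units, so they are not firm limits. Wnt2b was detected with hIgG (1.65) and vehicle (1.56) and not with CTLA-4-Ig, which is at least 2.09-fold and 1.96-fold over CTLA-4-Ig. Wnt8b was detected with CTLA-4-Ig (1.08) and vehicle (1.59), at least 1.21-fold and 1.78-fold over hIgG. Wnt1 had 0.800 with CTLA-4-Ig, next to the limit of 0.791, and is given no fold. Wnt7b and Wnt8a were detected on no array. Among all probes detected on 1 array and not on another, a bound of at least 2-fold was reached by 13.8% of those on hIgG and not CTLA-4-Ig, where Wnt2b falls, by 8.51% of those on CTLA-4-Ig and not hIgG, and by 10.1% of those on vehicle and not hIgG. It was reached by 16.8% of those on vehicle and not CTLA-4-Ig.

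The Frizzled receptors were all detected on every array, and their median log2 ratio was the highest of the roles over both controls (0.30 for hIgG, 0.28 for vehicle), with -0.01 between the controls. With quantile normalization, cyclic loess or joint scaling these shift down with all probes, and with normexp the 10 ratios over hIgG lay between -0.02 and 0.03. Above the median of all probes lay 8 of 10 over hIgG and 9 of 10 over vehicle. Fzd10 had signals of 13.0 with CTLA-4-Ig, 9.58 with hIgG and 9.14 with vehicle, and log2 ratios of 0.44 ± 0.20 and 0.51 ± 0.23 over hIgG and vehicle. Fzd4, the receptor for norrin and several Wnts, had 18.9, 13.7 and 15.5, with 0.46 ± 0.19 and 0.29 ± 0.21. Fzd7 had 26.2, 19.4 and 21.7, with 0.44 ± 0.19 and 0.28 ± 0.21. For these 3 receptors CTLA-4-Ig was the highest array and the controls differed by less than 1 spot error, and over vehicle only Fzd10 exceeded 2 spot errors, with the main scaling.

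Fzd1 had 30.9, 25.1 and 25 and Fzd2 had 33.0, 26.7 and 29.1, with log2 ratios over hIgG of 0.30 ± 0.18 and 0.31 ± 0.18. Both were highest with CTLA-4-Ig, by less than 2 spot errors, and with normexp their ratios over hIgG were 0.03 each. Fzd8 had 21.7, 18.9 and 22.2, Fzd6 had 7.55, 6.98 and 6.59, and Fzd5 had 6.81, 7.20 and 6.14, with ratios over hIgG of 0.20, 0.11 and -0.08. Fzd3, a receptor known from axon guidance and planar polarity, had 2.94, 3.0 and 2.26. None of these 4 receptors passed 1.5-fold. Fzd9 had the highest ratio of the whole set, 0.94 ± 0.69 over hIgG and 0.92 ± 0.73 over vehicle, but from signals of 2.04, 1.06 and 1.08 whose controls lay just above the detection limits, and with normexp both ratios were -0.01.

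The co-receptors had medians of 0.16, 0.04 and -0.14 for the 3 comparisons. Lrp6, which takes up the canonical signal with Frizzled, had 37.9, 35.1 and 38.8, with log2 ratios of 0.11 ± 0.18 (hIgG) and -0.03 ± 0.21 (vehicle). Its relative Lrp5, a determinant of bone mass, had 5.91, 7.45 and 5.76, with -0.33 ± 0.22 and 0.04 ± 0.26. Lrp5 was thus highest with hIgG and Lrp6 lowest, each by less than 2 spot errors. The tyrosine kinase receptor Ror2 had 8.09, 6.95 and 7.29. The 2 probes of Ror1 gave 5.36, 3.42 and 4.78, and 5.21, 4.67 and 6.40. They differed in the ratio over hIgG (0.65 ± 0.28 and 0.16 ± 0.25) and in its sign over vehicle (0.16 ± 0.27 and -0.30 ± 0.26), but both were lowest with hIgG, at -0.48 ± 0.33 and -0.45 ± 0.29 over vehicle.

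The secreted inhibitors held the clearest contrasts, and they ran in opposite directions: with hIgG, Sfrp1 and Sfrp2 were lower and Sfrp4 and Dkk1 higher, and with normexp each of these 4 turned its sign in the CTLA-4-Ig over hIgG ratio. Sfrp1, a soluble decoy with a Frizzled-like Wnt-binding domain, had a signal of 439 with CTLA-4-Ig, 325 with hIgG and 462 with vehicle. Its log2 ratio was 0.44 ± 0.18 over hIgG and -0.08 ± 0.21 over vehicle, and hIgG to vehicle gave -0.51 ± 0.23. Under the other scalings the last value ranged from -0.53 to -0.51, and with normexp it was 0.21. Sfrp2, a decoy of the same family made by fibroblasts, had 333, 252 and 344, with 0.40 ± 0.18, -0.05 ± 0.21 and -0.45 ± 0.23, and with normexp the last was 0.11. Sfrp1 and Sfrp2 thus had the same order on the arrays, with vehicle and CTLA-4-Ig close together and hIgG apart.

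Sfrp4, an inhibitor known for its part in cortical bone, had 43.4 with CTLA-4-Ig, 56.8 with hIgG and 37.3 with vehicle. Its log2 ratio was -0.39 ± 0.18 over hIgG and 0.22 ± 0.21 over vehicle, and hIgG to vehicle gave 0.61 ± 0.23, against 0.06, -0.08 and -0.14 with normexp. Dkk1, the antagonist of Lrp5 and Lrp6 and itself a target of β-catenin, had 21.2, 27.6 and 20.7, with -0.38 ± 0.18, 0.03 ± 0.21 and 0.41 ± 0.23, against 0.05, 0.03 and -0.01 with normexp. Both peaked on the hIgG array. Dkk3, the divergent member of the Dickkopf family, had 282, 201 and 226, with 0.48 ± 0.18, 0.32 ± 0.21 and -0.17 ± 0.23, and its CTLA-4-Ig signal lay above both controls (with normexp its ratios were -0.07 and -0.02). Dkk2 had 11.8, 11.3 and 10.0.

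The other inhibitors were dim. Wif1, a Wnt-binding antagonist of cartilage and bone, had 2.74 with CTLA-4-Ig, 1.86 with hIgG and 3.19 with vehicle, or 0.56 ± 0.44 over hIgG and -0.77 ± 0.47 between hIgG and vehicle. Frzb, a cartilage antagonist, had 3.42, 3.17 and 2.21, with 0.63 ± 0.41 over vehicle. Sfrp5 had 3.17, 2.93 and 3.23. None of these 3 differed by more than 2 spot errors in any comparison. Dkk4 and Sost were detected on no array. After subtraction of the blanks their spots were at -0.61 to -0.07 and -0.33 to -0.10 signal units, below the mean of the blank spots. Sost is known as an osteocyte gene. The osteoblast markers gave a summed signal of 165 to 180 in these cultures, with 5 of 5 probes detected on every array. Levels of different probes are not comparable, so this sum does not tell how many such cells there were. It also hides Ibsp, at 31.8, 14.1 and 16.5 (1.18 ± 0.19 over hIgG and 0.94 ± 0.21 over vehicle). Ibsp alone of these 5 probes was past 2 spot errors.

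**Figure D3:**
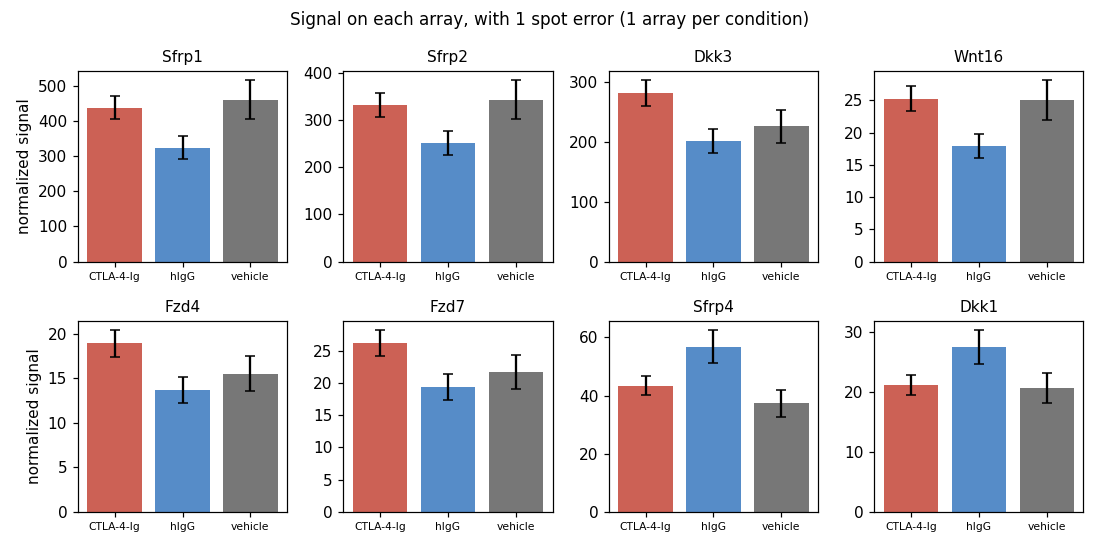
Normalized signal of Sfrp1, Sfrp2, Dkk3, Wnt16, Fzd4, Fzd7, Sfrp4 and Dkk1 with CTLA-4-Ig, hIgG or vehicle, with 1 spot error (1 array per condition, linear axes from 0). The hIgG bar is the lowest for Sfrp1 (325), Sfrp2 (252) and Wnt16 (17.9) and the highest for Sfrp4 (56.8) and Dkk1 (27.6), orders that are lost with normexp.

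At a mean signal of at least 100 the differences between hIgG and vehicle over all probes had a standard deviation of 0.16 on the log2 scale, and at 25 to 100 it was 0.18. At 5 to 25, where Dkk1 (mean signal 23.1) and Wnt16 (22.8) fall, it was 0.23. Sfrp1 (-0.51) and Sfrp2 (-0.45) lay at percentiles 2.52 and 3.57 of all 18664 probes for hIgG over vehicle, and Sfrp4 (0.61) and Dkk1 (0.41) at 98.2 and 95.2. Wnt16 (-0.49) lay at 2.94. Below a signal of 5 the standard deviation was 0.42, so that the wider ratios of Wnt10b and Wif1 stood in a wider field. These 2 lay at percentiles 0.632 and 0.713.

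**Figure D4:**
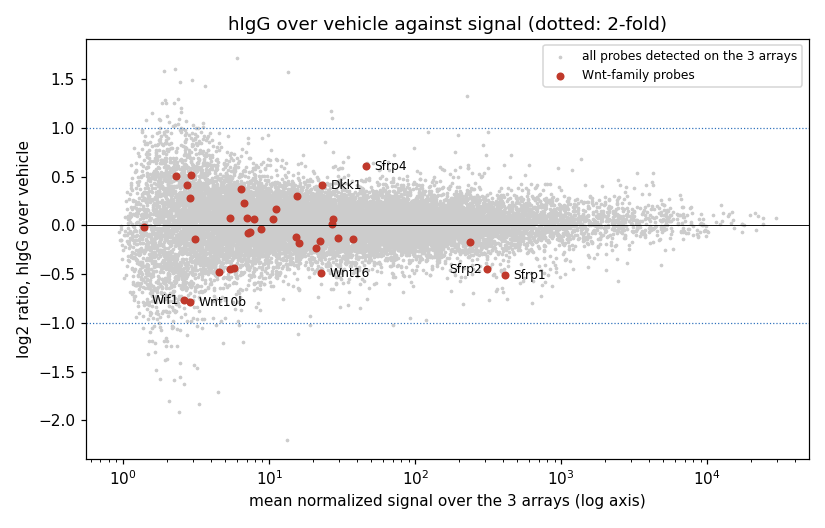
Log2 ratio of hIgG over vehicle against the mean normalized signal over the 3 arrays (log axis), for all 18664 probes detected on every array (grey) and the 36 Wnt-family probes (red), with dotted lines at 2-fold. Sfrp4 (0.61) and Dkk1 (0.41) lie in the upper part of the field at their signals. Wnt16 (-0.49), Sfrp2 (-0.45) and Sfrp1 (-0.51) lie in the lower part. These are values before the normexp correction, which reduces or turns each of them.

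The summed signal of the pericyte and smooth muscle markers, like Sfrp1 and Sfrp2, was lowest with hIgG, at 2928 with CTLA-4-Ig, 1841 with hIgG and 2724 with vehicle. Nearly all of it came from Acta2, a contractile actin of myofibroblasts (2884, 1804 and 2681). All 6 probes of that list were detected on every array, and 2 of them, Rgs5 (0.43 ± 0.38) and Myh11 (0.11 ± 0.46), had log2 ratios above the median of all probes for hIgG over vehicle. The macrophage markers ran the other way between the controls: 10 of 10 lay above the median of all probes for hIgG over vehicle, with a median log2 ratio of 0.19. Of these 10, only Fcgr1 (0.82 ± 0.23) was past 2 spot errors in that comparison. The fibroblast markers had a median of -0.06 there, with 5 above and 8 below. The part of these shifts in the Sfrp1, Sfrp2, Sfrp4 and Dkk1 values was not tested. Of the T cell markers, Cd3e and Cd3g were detected on no array and the other 5 of 7 probes on every array, with a summed signal of 81.0 to 115. Most of this sum was Cd28, at 89.0 with CTLA-4-Ig, 57.8 with hIgG and 77.3 with vehicle, and the probes of Cd3d, Cd4 and Cd8a gave 3.86 to 8.34. The endothelial markers summed to 64.3 to 68.1, with 5 of 6 probes detected on every array, the chondrocyte markers to 44.3 to 56.5, with 4 of 5 and Acan on no array, and the B cell markers to 13.7 to 16.5, with 3 of 3.

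Sequence upstream of the start was read for the members whose signals stood apart on the hIgG array, to show what their promoters hold. RefSeq promoters of GRCm38.p6 were matched for 30 of the 44 genes (32 promoters), among them Sfrp2, Wnt16 and Dkk1 and not Sfrp1, Sfrp4 or Dkk3. The 250 bases before the start follow, 5′ to 3′ on the gene's strand, at chr3:83766071-83766320 (plus strand) for Sfrp2, chr6:22287977-22288226 (plus strand) for Wnt16 and chr19:30549497-30549746 (minus strand) for Dkk1. Capitals mark the TCF/LEF word CTTTGNN and the TATA word TATAAA on either strand. The first fixes only the letters CTTTG and leaves the bases after them free (N), so it is looser than a TCF/LEF site.
Sfrp2: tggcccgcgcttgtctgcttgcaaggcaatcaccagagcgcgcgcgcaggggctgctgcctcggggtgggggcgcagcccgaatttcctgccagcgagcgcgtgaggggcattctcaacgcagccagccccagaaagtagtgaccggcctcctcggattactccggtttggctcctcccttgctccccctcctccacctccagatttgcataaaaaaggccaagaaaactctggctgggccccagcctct
Wnt16: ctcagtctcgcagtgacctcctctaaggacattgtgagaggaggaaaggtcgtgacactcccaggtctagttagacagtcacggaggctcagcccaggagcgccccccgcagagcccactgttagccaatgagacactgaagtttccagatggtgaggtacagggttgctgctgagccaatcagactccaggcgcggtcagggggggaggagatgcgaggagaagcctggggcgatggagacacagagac
Dkk1: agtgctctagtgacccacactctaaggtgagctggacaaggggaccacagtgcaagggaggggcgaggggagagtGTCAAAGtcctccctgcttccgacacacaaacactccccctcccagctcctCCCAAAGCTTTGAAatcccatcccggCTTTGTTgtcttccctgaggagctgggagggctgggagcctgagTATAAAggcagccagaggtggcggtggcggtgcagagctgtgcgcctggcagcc

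The Dkk1 promoter held 4 TCF/LEF words and 1 TATA word, and those of Sfrp2 and Wnt16 held 0 of each. Whether these words go with the direction on the hIgG array was not tested. The words did not overlap one another. Across the 32 member promoters 46.9% held at least 1 TCF/LEF word, against 48.3% of all 32851 promoters of this length, and 12.5% held a TATA word, against 12.4%. The GC box GGGCGG, also read on both strands, was in 75% of the member promoters, against 32.7% of all promoters and 42.6% of those of protein-coding genes, and their median GC content was 67.4%, against 52.4% and 55.6%. A match is a run of letters, not a bound site.

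Some ligand genes lie next to each other in the genome, with 0 protein-coding genes between them: Wnt6 and Wnt10a on chromosome 1, Wnt3a and Wnt9a as well as Wnt9b and Wnt3 on chromosome 11, and Wnt10b and Wnt1 on chromosome 15. Neighbours were not detected alike. Wnt9a and Wnt10b were detected on every array, and their neighbours Wnt3a and Wnt1 on the CTLA-4-Ig array only. In the other 2 pairs both genes were detected throughout.

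Axin2, a negative regulator induced by β-catenin in most tissues and thus a common readout of canonical signalling, had a signal of 2.32 with CTLA-4-Ig and 1.3 with hIgG, and was not detected with vehicle, where its spot was 0.334 above the blanks. This is at least 2.41-fold over vehicle for CTLA-4-Ig and at least 1.35-fold for hIgG. Of all probes detected with CTLA-4-Ig and not with vehicle, 8.95% reached such a 2-fold bound, and of those detected with hIgG and not with vehicle, 8.59%. With blank spots spreading by 0.396 to 0.482 signal units, both Axin2 signals lay close to the blanks, and no ratio between CTLA-4-Ig and hIgG was formed for it.

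The rest of the pathway was described from lists of its other genes. Of the target gene list, 21 probes were detected, with medians of 0.14, 0.06 and -0.13 (log2) for the 3 comparisons, and 15 of the 21 lay below the median of all probes in the last comparison. At least 2-fold higher over hIgG were 2 of them and 0 lower, where 0.471% and 0.193% of all probes were, and for hIgG over vehicle 2 were lower and 0 higher, beside 0.263% and 0.182%. Tnfrsf11b, which encodes osteoprotegerin, the decoy receptor of RANKL, had 86.9 with CTLA-4-Ig, 41.1 with hIgG and 83.5 with vehicle, or 1.08 ± 0.18, 0.06 ± 0.21 and -1.02 ± 0.23 in log2 ratios. Like Sfrp1 and Sfrp2 it was lowest with hIgG. Lgr5, a receptor for R-spondins, was the other, with 1 of its 2 probes at 1.81, 0.901 and 2.68 and a ratio over hIgG of 1.0 ± 0.80, from an hIgG signal next to the detection limit of 0.894, while its second probe had 2.24, 1.38 and 1.86. The matricellular gene Ccn2 had 728, 423 and 735 (0.78 ± 0.18 over hIgG and -0.80 ± 0.23 for hIgG over vehicle), and Ccn5 had 1433, 1327 and 1541. Of their relatives, chosen after their values were seen, Ccn1 had 495, 269 and 431 and Ccn4 had 80.5, 56.9 and 82.2, again lowest with hIgG. Other target genes, also chosen after their values were seen, were not lower. For hIgG over vehicle Ccnd1 and Myc had 0.02 each, Nkd1 had -0.03, Bambi 0.04 and Rnf43 0.32. In all, 6 of the 21 probes lay above the median of all probes there.

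Upstream of the receptors, Wls, which carries Wnts to the cell surface, had 568 with CTLA-4-Ig, 674 with hIgG and 757 with vehicle, or -0.25 ± 0.18 and -0.42 ± 0.21 as log2 ratios to hIgG and to vehicle. Porcn, the enzyme that adds the lipid to Wnts, had 53.1, 45.4 and 44.8. Of the R-spondin and Lgr list, 10 of 10 probes were detected, with a median of 0.17 over hIgG, and Rspo2 (64.8, 59.4 and 75) and Rspo3 (65.5, 63.9 and 58.2), secreted enhancers of Wnt signalling, differed little. Among 13 detected modulators outside the cell the median over hIgG was 0.06. Past 2-fold over hIgG were 0, where 0.471% of all probes were higher and 0.193% lower. Of these modulators, Cthrc1, a secreted protein that favours Wnt signalling through Ror2, had 861, 526 and 668 (0.71 ± 0.18 over hIgG and 0.37 ± 0.21 over vehicle), and Igfbp4 had 189, 202 and 240.

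Inside the cell the lists stayed near the median of all probes. Of the cytoplasmic cascade 28 probes were detected, with a median of 0.10 over hIgG. There 1 was 2-fold higher and 0 lower, where 0.471% and 0.193% of all probes were. The 1 was Frat1, a dim probe of a gene whose product binds glycogen synthase kinase, at 3.58, 1.76 and 2.0 (1.03 ± 0.44 over hIgG). Ctnnb1, the β-catenin gene, had 1565, 1319 and 1336 (0.25 ± 0.18 over hIgG and 0.23 ± 0.21 over vehicle), and Csnk1a1 had 462, 456 and 427. Of 15 nuclear factors detected, 0 passed 2-fold, which is close to these shares of all probes, with a median of 0.08 over hIgG. Ctbp1 had 364, 304 and 321 and Tle5 had 199, 240 and 212. Of 15 other receptors and planar polarity genes and 17 probes of the calcium branch, 0 passed 2-fold, again close to the shares of all probes. Both medians over hIgG were 0.11. In these lists Rac1 had 1524, 1781 and 1771, Rhoa 1722, 1695 and 1629, Ppp3ca 419, 440 and 421, and Camk2d 138, 121 and 138.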

How the data were processed

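Cy5-labelled RNA from 3 cultures, 1 per condition, was hybridized to Toray 3D-Gene mouse oligo arrays. For each spot the authors deposited the scanned intensity and a background column, and a table of normalized signal values on a linear scale, made by subtracting the blanks and scaling to a median of 25. That table rounds 2 of its columns to 1 decimal, so the same signal was recomputed: 384 blank spots were averaged without the top and bottom 5% (a rule inferred by matching the table) and this mean was subtracted, flagged spots were left out, and spots more than 2 standard deviations above the blanks were taken as detected. Every member lay within 0.0495 of the table. Samples were grouped by the treatment in their labels, and all sample columns were used.

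Ratios are log2 of these signals over probes detected on all 3 arrays, computed in Python 3.11.15 (numpy 2.4.6, pandas 2.3.3) and drawn with matplotlib 3.10.9. A probe counted as different at 2-fold, with 1.5-fold and 2 spot errors as further limits. The counting was checked on simulated arrays whose noise was the same at every signal. That noise was smaller than the real spread of dim probes. The check therefore cannot tell how often dim probes reach 2-fold without a true difference. Alternatives used limma 3.58.1 in R 4.3.3: quantile normalization, cyclic loess and normexp with an offset of 50. Others scaled by the 75th percentile or over jointly detected probes, used the deposited table, a mean signal of at least 5 or 25, a floor of 1 for undetected probes, or the brightest probe of a gene. The number of arrays limits the precision.

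Probes were named by the platform annotation, which can be old. The files name no genome build, so the only coordinates given are those of the RefSeq promoters. The members, lists and alternatives were chosen with earlier results of these data known. Named genes were all members, and in each pathway list those 2-fold apart and the 2 with the highest signal. Further target genes were named after their values were seen.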

Additional observations from a re-analysis of the deposited data

How the results depend on the processing

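With 1 array per condition, the data cannot separate a treatment from its culture or array, and dim probes are limited further by the blank spots. The change of each member's log2 ratio was taken after removing the shift of the median of all probes. A ratio counted as moved when this change reached the standard deviation of hIgG over vehicle for all probes of similar signal. The deposited table, quantile normalization, cyclic loess and both other scalings left all 108 ratios unmoved by this rule. The normexp correction moved 45 of the 108 ratios. It subtracts a background column whose log2 values correlated with the spot signal at 0.99 to 1.0 over spots, and it turned the signs for Sfrp1 (-0.14 over hIgG), Sfrp2 (-0.06), Dkk3 (-0.07), Sfrp4 (0.06) and Dkk1 (0.05). Its added offset also draws ratios toward 0, most at low signals, so normexp cannot decide whether a contrast is real. The cause of the turned signs was not tested. No paired analysis was possible because 1 array was run for each condition.

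The median log2 ratio of the members over hIgG, 0.21, was -0.00 with normexp and 0.30 at a mean signal of at least 25. Over vehicle, 0.16 became -0.01 with quantile normalization and -0.02 with cyclic loess, where the median of all probes was 0.00 and -0.00. For hIgG over vehicle, -0.06 became 0.00 with normexp and -0.13 at a mean signal of at least 25. The counts of 0 at 2-fold held in the other alternatives except that at 1.5-fold 3 were higher over hIgG, 3 higher over vehicle, and 1 higher and 2 lower for hIgG over vehicle, and that a floor of 1 for undetected probes gave 1 higher over vehicle, Axin2. Among all probes, 88 were 2-fold higher and 36 lower over hIgG. This split was 36 to 56 with quantile normalization, 39 to 59 with cyclic loess and 46 to 51 with joint scaling. Over vehicle it was 120 to 33, against 65 to 60, 52 to 70 and 72 to 55, and 360 to 285 with normexp. For hIgG over vehicle it was 34 to 49, against 288 to 239 with normexp.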
